A study of Homo sapiens with 6 samples.

Results

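Lysosomes are the acidic compartments in which cells break down proteins, sugar chains and lipids, each by its own soluble enzyme. The compartment is acidified by the vacuolar proton pump (V-ATPase), whose cytosolic V1 sector splits ATP and whose membrane V0 sector carries protons. Proteins of the VPS family, named after yeast mutants in vacuolar protein sorting, tether and sort the endosomes that deliver cargo and enzymes to it. In leukaemic cells of the monocytic lineage this system serves the degradation of engulfed and worn-out material.

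The genes described here were taken from the authors' deposited table by name: 25 lysosomal genes given one by one, every symbol that begins with VPS and a digit, and every symbol that begins with ATP6V or ATP6AP. Of the 6831 genes in that table, 40 met this rule, 13 of the lysosomal genes, 13 V-ATPase rows and 14 VPS rows. Cells of MOLM-13, a human line established from acute myeloid leukaemia, were kept for 24 h with the solvent DMSO (3 libraries) or with 50 nM DEG-35 (3 libraries), a compound that the series names as a degrader of the transcription factor IKZF2 and of the kinase CK1A. All cells carried the genotype that the labels call WT, and nothing in the labels ties the libraries to separate cultures. The p-values may then measure technical spread alone. Each row of the table gives the log2 fold change with its raw and adjusted p, and all rows have an adjusted p below 0.05. Genes in it are called listed here. A gene that is not listed did not pass or was not tested. Per-library values were not analysed here, so levels, depth and the overlap of the groups cannot be given.

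All directions read the fold changes as DEG-35 over DMSO, since the header does not name the numerator. They would all turn round under the other reading. Errors are standard errors (SE) worked back from the fold change and p of each gene, and intervals are 95% intervals from them. In bulk RNA a change in the level per cell and a change in the share of cells of one kind cannot be told apart.

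Genes of the lysosome and of vacuolar sorting that passed were mostly higher with DEG-35, by small amounts. Of the 40 genes of the rule, all of which passed by its construction, 31 were higher and 9 lower. Their median log2 fold change was 0.31 against -0.19 for all listed genes in the authors' deposited table. Higher genes thus made up 77.5% of these genes and 47.1% of all that were listed. The shares listed were close, though their denominators are unlike. Of 84 protein-coding genes that the rule could take by their current RefSeq symbols, tested or not, 38 were listed, or 45.2%, and of 15064 genes tested 45.3% were. How many of the 84 were tested is not known. VPS35L, listed under an older symbol, is not counted among the 38. In each direction, 21.4% of the genes tested were higher and 24.0% lower. The share listed was 52.0% (13 of 25) for the lysosomal genes, 50.0% (12 of 24) for V-ATPase genes and 37.1% (13 of 35) for VPS genes. Those 45.3% of genes tested, and the 47.1% of listed genes that were higher, stand beside the count of each smaller group below. With so few genes per group, such a count alone is not read as a result.

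Most changes of the 40 genes were small in size. A single row of the 40, the antisense RNA VPS9D1-AS1, reached an absolute log2 fold change of 1 in the authors' deposited table, or 2.50%, whereas 18.3% of all listed genes and 8.30% of all tested genes did. Of the 25 listed genes in a list of further lysosomal hydrolases and cofactors, 6 (24.0%) did, so small size was not general among lysosomal genes. The median absolute log2 fold change was 0.36 for the 40 genes and 0.47 for all listed genes in the authors' deposited table. Their precision was good, with a median implied SE of 0.0704 against 0.0891 for all listed genes, and the implied SE was at most 0.2 for 39 of the 40, all but SMPD1. The same held for 39.5% of the genes tested, being listed included. At an adjusted p below 0.01, 34 of the 40 passed, beside 36.8% of the genes tested, and 18 passed Bonferroni adjustment, beside 20.9%. An absolute log2 fold change of 0.5 was reached by 14, beside 21.3% of the genes tested. All of these shares of the 40 follow a choice of genes made among those listed, so nothing is read from them.

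**Figure D1:**
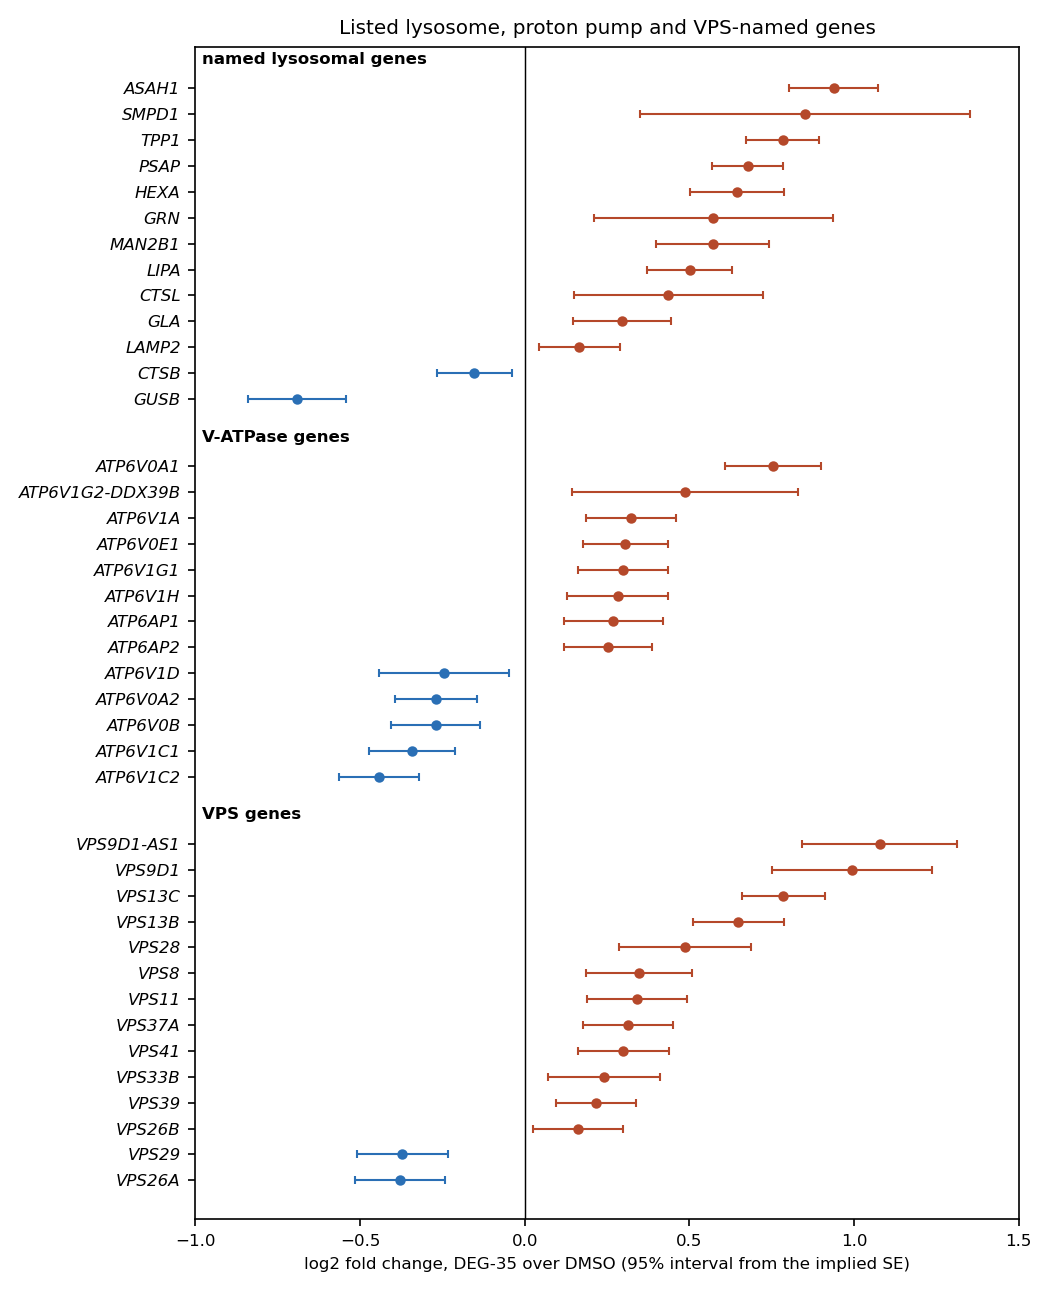
Log2 fold changes (DEG-35 over DMSO, from the authors' deposited table) of the 40 listed genes, with 95% intervals from the implied SE, in 3 families. Red points are higher and blue points lower with DEG-35; 11 of 13 lysosomal genes, 8 of 13 V-ATPase rows and 12 of 14 VPS rows are higher.

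Among genes that serve the breakdown of lipids in the lysosome, those that passed were higher. ASAH1, the acid ceramidase, rose 1.92-fold (0.94 ± 0.0690, adjusted p = 1.06e-40 in the authors' deposited table). PSAP, the precursor of the saposins that present sphingolipids to their enzymes, rose to 0.68 ± 0.0555 (adjusted p = 9.36e-33 in the authors' deposited table). SMPD1, the acid sphingomyelinase, stood at 0.85 ± 0.255 in the authors' deposited table, and its 95% interval from 0.35 to 1.35 leaves its rank among these genes undetermined. LIPA, the acid lipase that releases cholesterol from its esters, rose by 1.41-fold (0.50 ± 0.0653, adjusted p = 1.92e-13 in the authors' deposited table). With these, 4 of the 6 lipid enzymes and activators were listed, or 66.7% beside 45.3% of all genes tested. All 4 were higher, with a median of 0.76. The other 2, the galactosylceramidase GALC and the palmitoyl thioesterase PPT1, were not listed. Neither were NPC1 and NPC2, which pass cholesterol out of the lysosome after LIPA has released it.

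Among the proteases, TPP1, which removes tripeptides from the ends of proteins, had the smallest adjusted p of all 40 genes. It was 1.72-fold higher (0.78 ± 0.0567, adjusted p = 5.40e-42), at rank 427 of 6831 by adjusted p in the authors' deposited table. The cysteine protease gene CTSL stood at 0.44 ± 0.146 and its relative CTSB fell to -0.15 ± 0.0577 in the authors' deposited table. Their difference was 0.59 on the log2 scale (95% interval 0.28 to 0.90, SEs combined as if independent). Cathepsins A, D, H and Z (CTSA, CTSD, CTSH, CTSZ) were not listed. Thus 3 of 7 proteases were, or 42.9% beside 45.3% of all genes tested. No common change of cathepsin mRNA can be read from these values.

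Of 7 glycosidases, which trim sugars from glycoproteins and glycolipids, 4 were listed, or 57.1% beside 45.3% of all genes tested. HEXA, the alpha subunit of hexosaminidase A, rose to 0.65 ± 0.0730 (adjusted p = 1.50e-17), MAN2B1, an alpha-mannosidase, to 0.57 ± 0.0871, and GLA, the alpha-galactosidase, to 0.29 ± 0.0758 in the authors' deposited table. GUSB, the beta-glucuronidase, fell 1.61-fold (-0.69 ± 0.0763, adjusted p = 2.19e-18 in the authors' deposited table), the largest fall of the 40 genes. GAA, GLB1 and NEU1 were not listed. GUSB is often used as a reference gene in expression assays, and in these libraries it was not constant between the groups.

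GM2A, which encodes the activator that presents the ganglioside GM2 to the enzyme holding the HEXA subunit, came from a list of further hydrolases and cofactors. It was 2.23-fold higher at 1.16 ± 0.0756 in the authors' deposited table. In the same list a pair of arylsulfatase genes moved apart, with ARSA at 0.69 ± 0.154 and ARSB at -0.23 ± 0.0767 in the authors' deposited table. Their difference was 0.91 on the log2 scale (95% interval 0.57 to 1.25), which a common scaling error would not alter.

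Of the membrane protein and progranulin genes, LAMP2, a coat protein of the lysosomal membrane, was higher at 0.17 ± 0.0628 and GRN, the precursor of the lysosomal granulins, at 0.57 ± 0.185 in the authors' deposited table. LAMP1, the close relative of LAMP2, was not listed. Progranulin is carried to lysosomes by the sorting receptor sortilin or together with prosaposin, and the sortilin gene SORT1 stood at 0.75 ± 0.217 in the authors' deposited table.

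The genes of the proton pump did not move as a unit. Leaving out a read-through row described below, 12 V-ATPase genes were listed. Of these 7 were higher and 5 lower, and the median was 0.26 in the authors' deposited table. In the V1 sector 3 of 6 listed genes were higher and in the V0 sector 2 of 4, whereas both listed accessory genes were higher. ATP6V1A, the catalytic subunit that binds ATP, stood at 0.32 ± 0.0692, the stalk subunit ATP6V1G1 at 0.30 ± 0.0697 and the regulatory subunit ATP6V1H at 0.28 ± 0.0784 in the authors' deposited table. On the lower side of V1 were ATP6V1C1 at -0.34 ± 0.0669 (adjusted p = 1.78e-06), ATP6V1C2 at -0.44 ± 0.0621 (adjusted p = 1.11e-11) and the central rotor subunit ATP6V1D at -0.24 ± 0.101 in the authors' deposited table. C1 and C2 are alternative forms of the subunit that clamps V1 onto V0, and they did not differ beyond their error (difference 0.10, 95% interval -0.08 to 0.28). ATP6V1C2 and ATP6V1D each overlap another listed gene of nearly the same value, as described below. Whether their falls, and the likeness of C1 and C2, hold reads of those genes was not tested.

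In the membrane sector the alternative forms of subunit a parted. ATP6V0A1 rose 1.69-fold (0.75 ± 0.0748, adjusted p = 1.41e-22) and ATP6V0A2 fell to -0.27 ± 0.0632 (adjusted p = 8.80e-05) in the authors' deposited table. The a subunit forms the proton path with the ring and its isoforms differ in the membranes they serve. Their difference was 1.02 on the log2 scale (95% interval 0.83 to 1.21). ATP6V0B, a ring subunit, stood at -0.27 ± 0.0693 and the small subunit ATP6V0E1 at 0.31 ± 0.0661 in the authors' deposited table. The accessory genes ATP6AP1, at 0.27 ± 0.0765, and ATP6AP2, the prorenin receptor, at 0.25 ± 0.0679, rose by nearly equal amounts in the authors' deposited table. ATP6V0C, ATP6V0D1, ATP6V1B2, ATP6V1E1 and ATP6V1F, which encode other subunits, were not listed, and nor were the tissue-restricted forms ATP6V0A4, ATP6V0D2, ATP6V1B1, ATP6V1G2 and ATP6V1G3 or the alternative forms ATP6V0E2 and ATP6V1E2.

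HOPS and CORVET are multi-subunit tethers that share a core; HOPS joins late endosomes to lysosomes and CORVET acts on early endosomes. Of 8 VPS genes of these tethers and their close relatives, 5 were listed, or 62.5% beside 45.3% of all genes tested. All 5 were higher, between 0.22 and 0.35 in the authors' deposited table, where 47.1% of all listed genes were higher. VPS8, found in CORVET, stood at 0.35 ± 0.0824 and the core subunit VPS11 at 0.34 ± 0.0781 (adjusted p = 5.52e-05) in the authors' deposited table. VPS41 at 0.30 ± 0.0704 and VPS39 at 0.22 ± 0.0617, both found in HOPS, and VPS33B, a relative of the core subunit VPS33A that pairs with VIPAS39 instead, at 0.24 ± 0.0865 were the others in the authors' deposited table. All 5 intervals overlap, so no order among these genes can be given. The core genes VPS16, VPS18 and VPS33A were not listed, and neither was TGFBRAP1, a CORVET subunit without a VPS name.

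Retromer is the coat that returns receptors from endosomes to the Golgi and the cell surface. Of its subunits VPS26A fell to -0.38 ± 0.0696 (adjusted p = 3.31e-07) and VPS29 to -0.37 ± 0.0711 (adjusted p = 1.01e-06) in the authors' deposited table, the 2 VPS genes that were lower. VPS26B, the alternative form of VPS26A, was just inside the threshold on the other side, at 0.16 ± 0.0698 (adjusted p = 0.0473 in the authors' deposited table). The difference of VPS26B from VPS26A was 0.54 (95% interval 0.35 to 0.73). The remaining subunit VPS35 was not listed. In retriever, a relative of retromer that shares VPS29, VPS26C was not listed, and VPS35L, which the table holds under the older symbol C16orf62 and which the rule therefore misses, stood at 0.59 in the authors' deposited table.

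The VPS13 genes encode large lipid transfer proteins, and 2 of 4 were listed (50%, beside 45.3% of all genes tested), both higher. VPS13C, which bridges late endosomes or lysosomes with the endoplasmic reticulum, was 1.72-fold higher (0.79 ± 0.0645, adjusted p = 1.09e-32), and VPS13B, a Golgi form, 1.57-fold higher (0.65 ± 0.0703, adjusted p = 4.67e-19) in the authors' deposited table. They did not differ beyond their error (difference 0.14, 95% interval -0.05 to 0.32). VPS13A and VPS13D were not listed. The ESCRT machinery sorts ubiquitin-tagged cargo into the endosome lumen. Of 9 genes for it, 2 were listed, or 22.2% beside 45.3% of all genes tested. Both encode subunits of its first complex, VPS28 at 0.49 ± 0.102 and VPS37A at 0.31 ± 0.0704 in the authors' deposited table. VPS4A, VPS4B, VPS25, VPS36, VPS37B, VPS37C and VPS37D were not listed, and neither were any of the 5 genes of the GARP and EARP tethers (VPS50 to VPS54) nor VPS45 and VPS72. VPS9D1 at 0.99 ± 0.124 and its antisense partner VPS9D1-AS1 at 1.08 ± 0.121 were the largest values of the 40 in the authors' deposited table.

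Several of these rows overlap another listed gene, and the sources used here do not give how reads of such pairs were assigned, by strand or otherwise. In GENCODE release 29 (GRCh38, not the build of the files), used for order, strand and overlap only, 10 of the 40 genes overlapped at least 1 other listed gene. The shared stretch, introns included, ran from 120 bases (ATP6V0A1 with MIR5010) to 12230 (ATP6V1G2-DDX39B with DDX39B). It was 269 bases for ATP6V1D with EIF2S1, 1720 for ATP6V1C2 with PDIA6 and 10210 for GLA with RPL36A-HNRNPH2. The row ATP6V1G2-DDX39B is a read-through transcript of the pump gene ATP6V1G2 and the RNA helicase gene DDX39B. Its log2 fold change of 0.49 ± 0.175, its p-value and its adjusted p (0.0141) are the same, digit for digit, as those of DDX39B in the authors' deposited table, and ATP6V1G2 itself was not listed. That row therefore holds no value separate from the helicase gene. Only 13 of the 6831 rows share all their statistics with another row.

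Overlap on opposite strands touched both lower and higher genes. ATP6V1C2 (-0.44) overlaps PDIA6, a protein disulfide isomerase gene that stood at -0.46 ± 0.0589 in the authors' deposited table. ATP6V1D (-0.24) overlaps EIF2S1, a translation initiation factor gene at -0.24 ± 0.0695 in the authors' deposited table. For these pairs the values differ by less than their errors, and a part of the partner's reads in either value was not tested. VPS9D1 (0.99) overlaps both VPS9D1-AS1 (1.08) and the zinc finger gene ZNF276. ZNF276 stood at 0.49 ± 0.0863 in the authors' deposited table, and all 3 genes were higher. VPS9D1 and VPS9D1-AS1 differ by less than their errors, and shared reads were not tested, so they cannot be counted as separate rises. Opposite directions were seen at VPS26B, which overlaps the condensin gene NCAPD3 (-1.45 ± 0.0599), and at VPS13B, which overlaps COX6C (-0.19 ± 0.0638), a respiratory chain subunit gene, in the authors' deposited table. VPS37A overlaps MTMR7 (0.50) and CNOT7 (-0.17), GLA overlaps RPL36A-HNRNPH2 (0.25), and ATP6V0A1 holds the microRNA gene MIR5010 (1.16) in the authors' deposited table. GLA (0.29) and RPL36A-HNRNPH2 also differ by less than their errors, and shared reads were not tested there either. Without the 10 genes, 23 of 30 were higher. For the VPS rows 9 are then left, 7 of them higher, and for the V-ATPase rows 9, of which 6 were higher.

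**Figure D2:**
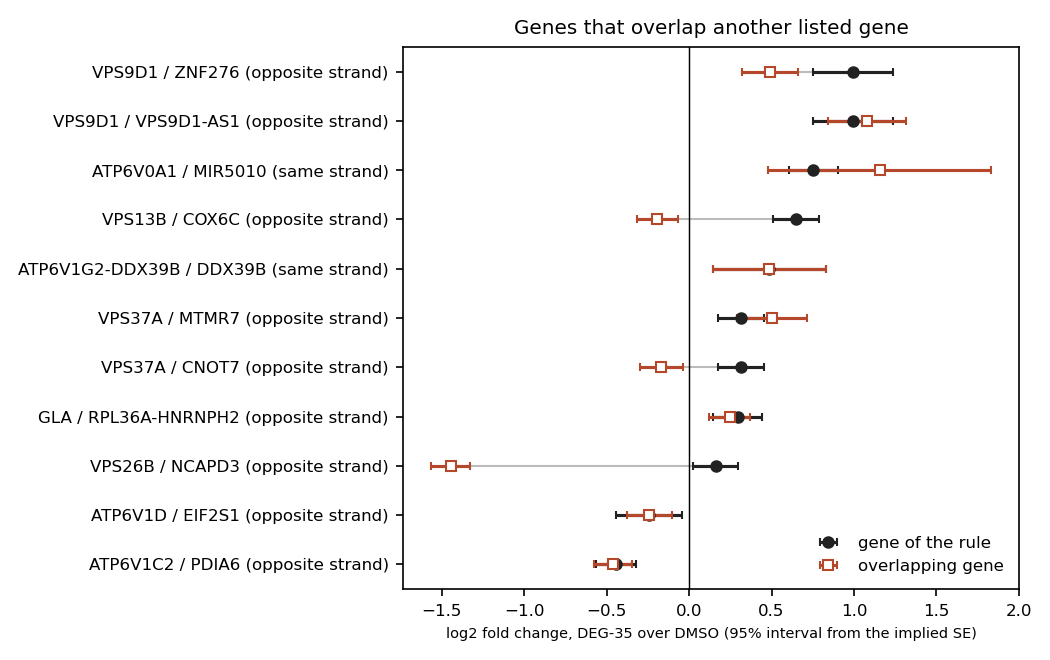
Log2 fold changes (DEG-35 over DMSO, from the authors' deposited table) of genes of the rule (filled circles) and of the listed gene that each overlaps (open squares), with 95% intervals from the implied SE. Both marks coincide for ATP6V1G2-DDX39B with DDX39B and lie close together for ATP6V1C2 with PDIA6 and ATP6V1D with EIF2S1, whereas VPS26B and NCAPD3 lie far apart.

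Lysosomal genes are known to share a promoter element, the CLEAR element, to which the MiT/TFE factors (TFEB, TFE3, MITF and TFEC) bind, built around the E-box CACGTG. RefSeq promoter windows (GRCh38.p14, 250 bases before to 50 after the start) were matched by symbol for 26 of the 40 genes. They were searched on both strands for CACGTG, for the longer word TCACGTGA, which contains it, and for TCATGTGA (TCACATGA on the other strand), the M-box form read by the same factors; the last word was added after the TPP1 window had been seen. The 3 windows with CACGTG before the start and that of TPP1, the gene with the smallest adjusted p, are shown for the 100 bases before the start (for VPS11, the first of 2 windows), 5′ to 3′ on the strand of the gene, with the words found in capitals.
ATP6V1G1 (chr9:114587669-114587768, plus strand): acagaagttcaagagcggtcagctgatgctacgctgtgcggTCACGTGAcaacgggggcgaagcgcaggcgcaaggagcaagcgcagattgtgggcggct
VPS11 (chr11:119067718-119067817, plus strand): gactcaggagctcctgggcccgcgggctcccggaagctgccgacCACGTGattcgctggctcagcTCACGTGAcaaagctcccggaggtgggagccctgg
ATP6V0B (chr1:43974860-43974959, plus strand): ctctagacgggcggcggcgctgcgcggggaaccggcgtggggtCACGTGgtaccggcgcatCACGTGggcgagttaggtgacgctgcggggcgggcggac
TPP1 (chr11:6619423-6619522, minus strand): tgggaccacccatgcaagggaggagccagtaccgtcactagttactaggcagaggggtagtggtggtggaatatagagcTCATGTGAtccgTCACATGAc

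The word CACGTG was found in 4 of these 26 genes, ATP6V1G1, VPS11, ATP6V0B and, just after its start, VPS8. That is 15.4%, beside 12.7% of 4987 listed genes and 8.77% of 27305 genes with a window. ATP6V1G1, VPS11 and VPS8 were higher and ATP6V0B was lower with DEG-35. TCACGTGA was found in 2 of the 26 (7.69%), ATP6V1G1 and VPS11, against 2.11% of listed and 1.18% of all genes. Among the 93 listed genes of the related lists described next that have a window, 21 (22.6%) held CACGTG and 13 TCACGTGA. Among all listed genes the share with TCACGTGA was 2.29% of those higher and 1.95% of those lower. TCATGTGA was found in TPP1 and GRN, each of which holds it at 2 places. Of the 93 genes of the related lists 6 (6.45%) held it, beside 1.26% of listed and 1.24% of all genes. Because the word was taken from the TPP1 window, its count among the 26 was partly fixed beforehand and nothing is read from it. A match is a description of letters and shows no binding, and a window without a match says nothing of the factors.

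Genes of the same pathways outside the rule were counted from 9 lists. Together they hold 267 genes, tested or not, of which 121 were listed (45.3%), beside 45.3% of all genes tested. The denominators are unlike, since how many of the 267 were tested is not known. That share of all genes tested stands beside the count of each list below. Of the 121, 90 were higher and 31 lower, at a median of 0.33 in the authors' deposited table. Higher genes made up 74.4% of the 121 and 47.1% of all listed genes. The further hydrolases and cofactors had 25 of 40 listed, or 62.5%, 20 higher and 5 lower, with a median of 0.60. Besides GM2A, RNASET2, a ribonuclease, stood at 0.77 ± 0.0611 and the cathepsin gene CTSO at 1.41 ± 0.116 in the authors' deposited table. CTSV, a close relative of CTSL, was lower at -2.69 with a wide error of 0.880 (SE) in the authors' deposited table. Lysosomal membrane proteins and transporters had 16 of 36 listed, 15 of them higher, with a median of 0.50. LAPTM5, a membrane protein of blood cell lysosomes, at 0.82 ± 0.0533 (adjusted p = 3.69e-51), CD68 at 0.76 ± 0.0700 and MFSD1 at 0.71 ± 0.0679 led in the authors' deposited table, and LAPTM4B was the 1 that was lower, at -0.14 ± 0.0575.

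Genes that tag enzymes with mannose 6-phosphate and sort them had 10 of 18 listed, 9 higher, with a median of 0.29. The sorting receptor SORL1 was 3.44-fold higher (1.78 ± 0.111, adjusted p = 6.88e-57), the adaptor GGA2 stood at 0.62 ± 0.0575 and CLN6, which helps enzymes leave the endoplasmic reticulum, at -0.56 ± 0.0790 in the authors' deposited table. Partners of the V-ATPase without its prefix had 6 of 13 listed, 5 higher, with TLDC2 at 1.25 ± 0.108, ROGDI at 0.97 ± 0.217, the assembly gene CCDC115 at 0.39 ± 0.0918 and the assembly gene VMA21 at -0.29 ± 0.0701 in the authors' deposited table.

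Listed regulators went in both directions, and their list does not separate activators from inhibitors. Of 38 MiT/TFE factors and regulators of the kinase mTORC1 at the lysosome, 17 were listed, 10 of them higher and 7 lower (median 0.25). TFEC stood at 0.88 ± 0.0810, WDR59, a subunit of the GATOR2 complex, at 0.86 ± 0.0764, and FNIP2, a partner of folliculin, at -1.15 ± 0.134 in the authors' deposited table. TFEB and MITF were not listed, and TFE3 stood at 0.41 in the authors' deposited table. Autophagosome genes had 17 of 37 listed, 13 higher, with a median of 0.27, led by ATG13 at 0.46 ± 0.0594, GABARAPL1 at 1.11 ± 0.149 and the cargo receptor NBR1 at 0.51 ± 0.0726, with ATG5 at -0.21 ± 0.0711, in the authors' deposited table.

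Endosomal machinery outside the VPS names was counted in the same way. Of 41 endosome sorting partners 20 were listed, 12 of them higher and 8 lower (median 0.21). Among them were COMMD6 at 0.67 ± 0.0697, COMMD4 at -0.78 ± 0.0956 and VIPAS39, the partner of VPS33B, at 0.70 ± 0.0930 in the authors' deposited table. ESCRT genes without a VPS name had 4 of 22 listed, or 18.2%, with CHMP7 at -0.35 ± 0.0663, VTA1 at -0.21 ± 0.0736, CHMP1A at -0.25 ± 0.102 and PDCD6IP at 0.16 ± 0.0661 in the authors' deposited table. Genes of lysosome positioning and lysosome-related organelles had 6 of 22 listed, 5 higher, with BLOC1S2 at 0.58 ± 0.0769, BORCS7 (listed as C10orf32) at 0.34 ± 0.0800 and HPS3 at -0.40 ± 0.0770 in the authors' deposited table.

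**Figure D3:**
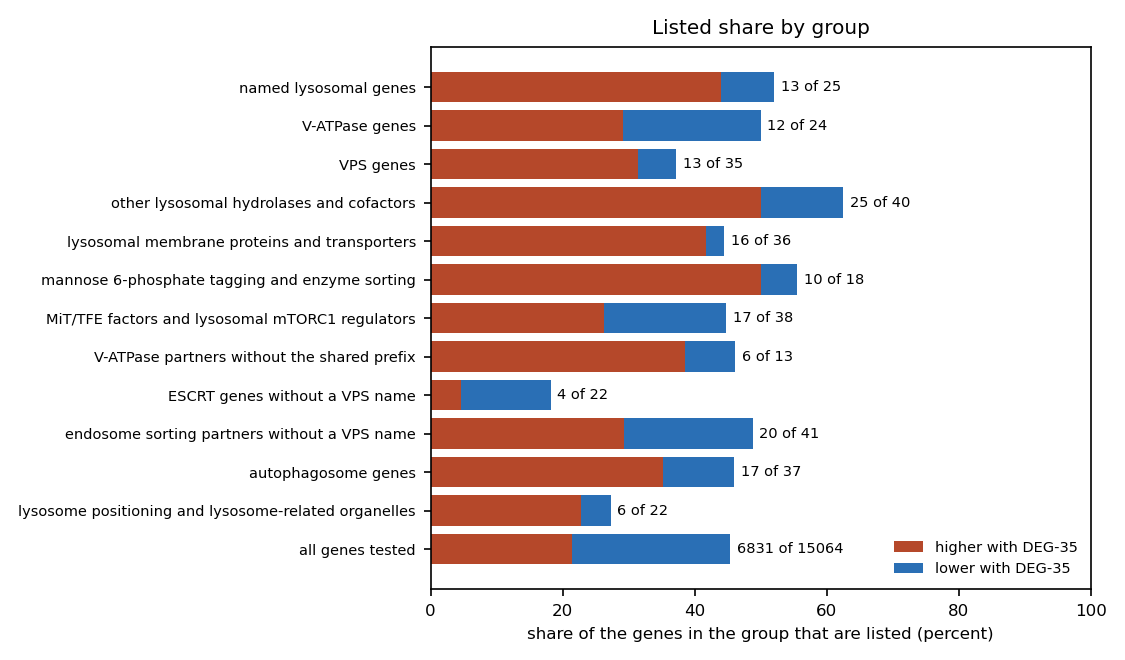
Share of each group of genes (percent) that is listed in the authors' deposited table, split into genes higher (red) and lower (blue) with DEG-35, with the numbers at the bar ends. The V-ATPase and VPS bars count protein-coding genes with current symbols, whereas the bars of the related lists also count older symbols. The further hydrolases reach 62.5% and the ESCRT genes without a VPS name 18.2%, beside 45.3% of all genes tested.

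**Figure D4:**
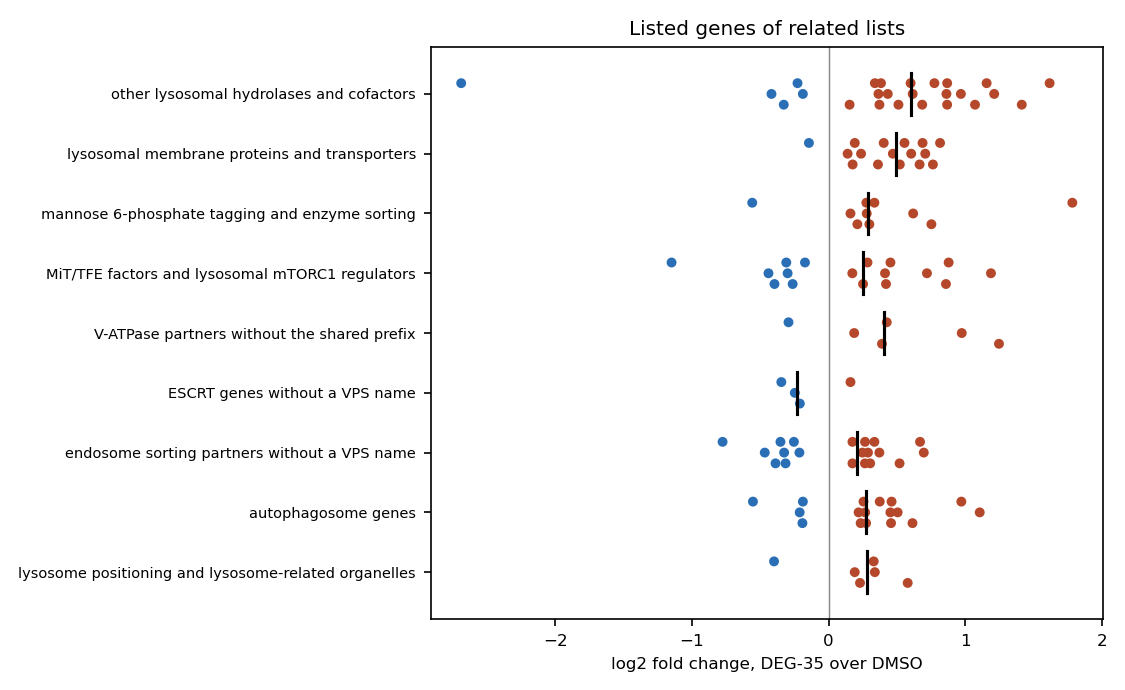
Log2 fold changes (DEG-35 over DMSO, from the authors' deposited table) of the listed genes of the 9 related lists, 1 point per gene, red if higher and blue if lower, with a black bar at the median. Hydrolases and membrane proteins lie mostly to the right, with medians of 0.60 and 0.50, and the median of the ESCRT genes is -0.23.

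Monocytes and macrophages are known for a high content of lysosomes, and a minority of their markers moved with the lysosomal genes. Of 16 markers 6 were listed, or 37.5% beside 45.3% of all genes tested, all 6 higher, between 0.28 and 1.66 (median 1.35) in the authors' deposited table. The integrin gene ITGAM at 1.47 ± 0.0956, LILRB4 at 1.24 ± 0.0820 and the growth factor receptor gene CSF1R at 1.57 ± 0.147 had the smallest adjusted p-values in the authors' deposited table. CD14, CD163, MRC1, S100A8 and S100A9 were among the 10 that were not listed. Their part in the changes of lysosomal genes was not tested. None of 7 T lymphocyte markers was listed, and 1 of 5 B lymphocyte markers (PAX5, -0.70) and 1 of 7 erythroid markers (the transferrin receptor gene TFRC, -0.42) were, both lower in the authors' deposited table. Since the table has no levels, the label of the cell line could not be checked against its markers.

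The counts depend on the scaling that the authors used, which the sources used here do not state. If all log2 fold changes of listed genes were lower by 0.3, 21 of the 40 genes would be higher, 9 of 13 lysosomal, 8 of 14 VPS and 4 of 13 V-ATPase rows. The share higher would then be 52.5% for the 40 genes and 36.6% for all listed genes. If they were higher by 0.3, 35 of the 40 genes (87.5%) and 60.8% of all listed genes would be higher, among them 11 of 13 V-ATPase rows. The differences between paired subunits given above do not change with such a shift.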

How the data were processed

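RNA from 6 MOLM-13 samples, 3 with DMSO and 3 with DEG-35, was made into SMARTer mRNA libraries, per the labels' protocols. STAR, featureCounts and DESeq2 and the build hg19 are named, per the submitters' processing notes, without versions, options or order. The authors deposited 1 comparison table, holding a log2 fold change and 2 p-value columns (raw and adjusted) per gene, per the file headers; no value of the adjusted p-value reaches 0.05. For all 2789 genes with p above 0.0001 the adjusted p times rank over p lay within 0.1% of 15064, the number of tests. No counts are in the table, so depth is unknown and nothing could be refitted: the authors' adjusted p was used as deposited. The implied SE is the absolute log2 fold change over the standard normal quantile that its two-sided p gives, which assumes a Wald test. The code for it and for the number of tests was checked on data simulated under the same assumption. The assumption itself was not tested. No set was tested.

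Members and lists were chosen with earlier results of these data known. All listed members are named. 1 gene that the rule for named genes takes is not reported here. For each list, up to 3 genes of smallest adjusted p are named, and so is the first gene of the minority direction; ARSA, ARSB, CTSV, SORT1, TFE3, C16orf62 and overlapping genes were also named after their values were seen, and so were the paired differences. Symbols were matched to RefSeq (GRCh38.p14), older symbols only where they point to 1 gene; 6269 listed symbols are current. Alternatives were an adjusted p below 0.01, Bonferroni over 15064 tests, a minimum absolute log2 fold change of 0.5, an implied SE of at most 0.2, shifts by 0.3, exact symbols, and leaving out antisense or overlapping rows. The work was done in Python 3.11.15 with NumPy 2.4.6 and pandas 2.3.3; quantiles came from SciPy 1.17.1 and plots from Matplotlib 3.10.9.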

Additional observations from a re-analysis of the deposited data

How the results depend on the processing

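No paired analysis was possible because the table holds no values per sample, and for the same reason no replicate could be left out. Counts within 1.5 times the reported ones are not repeated: these are 78 planned counts and 6 added later, beside the 24 and 2 given here, and among them all counts of the 40 genes at an adjusted p below 0.01 and with an implied SE of at most 0.2. Bonferroni adjustment over 15064 tests, stricter by construction, left 18 of the 40 genes (13 higher): 7 lysosomal (6 higher), 4 V-ATPase (2 higher) and 7 VPS rows (5 higher). A minimum absolute log2 fold change of 0.5, also stricter, left 14 genes (13 higher), with 1 V-ATPase row (1 higher) and 4 VPS rows (4 higher). When 0.3 was taken off each log2 fold change, 4 V-ATPase rows were higher in place of 8. In the lists the same shift left 4 of 10 higher for mannose 6-phosphate genes, 6 of 20 for endosome sorting partners, 8 of 17 for autophagosome genes, 3 of 6 for lysosome positioning and 0 of 4 for ESCRT genes, of which 3 were higher when shifted up. At an adjusted p below 0.01, 3 V-ATPase partners were higher in place of 5, and 1 ESCRT gene without a VPS name was left, with 0 higher. Without rows that overlap another listed gene, an alternative chosen after seeing the data, 9 VPS rows (7 higher) were left. A shift changed directions only, since its effect on p was not known. Unknown depth and unknown levels limit every statement on genes that are not listed.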
